A study of Homo sapiens with 4 samples.

Results

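The genes described here are 10 negative regulators of mitogen-activated protein (MAP) kinase signalling: the dual-specificity phosphatases DUSP1, DUSP2, DUSP4, DUSP5, DUSP6 and DUSP10, the Sprouty genes SPRY2 and SPRY4, and the Sprouty-related genes SPRED1 and SPRED2. They were chosen by symbol, with earlier results of these data known. All 10 of 10 were found among the 22494 features of the deposited tables. RNA was sequenced from the established endometrial cancer lines RL-95-2 and HEC-1-A. Cells of each line received either the tRF-20-S998LO9D mimic, a copy of a transfer RNA fragment, or a negative control. The design gives 4 groups of 1 library each, named below by line and by mimic or control. Whether both libraries of a line stem from separate cultures is not in the labels, so the p-values reflect the spread between these 4 samples alone, which may be technical.

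Extracellular signal-regulated kinase (ERK), p38 and c-Jun N-terminal kinase (JNK) are MAP kinases, which are switched on when an upstream kinase phosphorylates them. Dual-specificity phosphatases of this class remove those phosphates, and many of their genes are transcribed in response to the very kinases they switch off, which makes a negative feedback loop. Sprouty and SPRED proteins act higher in the cascade, between growth factor receptors, RAS and RAF. In the endometrium and its tumours this cascade carries growth factor signals that drive proliferation.

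Library totals lay between 33575882 and 46220053 counts, and levels are given as CPM (counts scaled to library size) after scaling by the trimmed mean of M-values (TMM), or as the deposited FPKM values, which divide by gene length. Every one of the 10 genes had at least 137 counts in each library. All 7 epithelial markers examined were above 1 CPM in at least 1 library. Their summed FPKM was 694 (control) and 629 (mimic) for HEC-1-A and 1062 (control) and 1928 (mimic) for RL-95-2. The RL-95-2 markers did not move together from control to mimic. KRT8 went from 171 to 728 FPKM, KRT18 from 468 to 648, KRT19 from 172 to 351 and CDH1 from 36.1 to 40.3. EPCAM (81.0 to 76.9), CLDN4 (66.5 to 51.2) and ESRP1 (66.8 to 32.5) were lower with the mimic. Of 8 endometrial lineage markers 4 passed 1 CPM, led by PAX8, while SOX17 and PGR had no count. None of 6 blood and immune markers reached 1 CPM. Of 5 endothelial markers only CDH5 did, at 3.11 and 6.11 FPKM in the RL-95-2 control and mimic libraries. Of 6 stromal markers 3 did, with COL1A1 at 11.98 and 10.8 FPKM in RL-95-2 and no count for COL1A2 or DCN. The part of these marker shifts in the results below was not tested. In bulk RNA, fewer cells of a type and less RNA per cell cannot be told apart.

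The promoters of DUSP1, SPRY4 and DUSP6 are shown as those of 1 nuclear phosphatase, 1 Sprouty gene and 1 cytoplasmic phosphatase. They were picked with their values known, and DUSP4 and DUSP5 are named only. Each line gives the 250 bases before the RefSeq start (GRCh38.p14), read 5′ to 3′ on the strand of the gene. Capitals mark the cyclic AMP response element (CRE, TGACGTCA) and its shorter core (TGACG), on either strand.
DUSP1, chr5:172771196-172771445, minus strand: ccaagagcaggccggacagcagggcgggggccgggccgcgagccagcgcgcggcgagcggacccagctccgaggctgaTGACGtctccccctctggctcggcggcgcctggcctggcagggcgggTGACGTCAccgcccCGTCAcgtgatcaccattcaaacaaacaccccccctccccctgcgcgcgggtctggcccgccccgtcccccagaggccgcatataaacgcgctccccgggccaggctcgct
SPRY4, chr5:142324248-142324497, minus strand: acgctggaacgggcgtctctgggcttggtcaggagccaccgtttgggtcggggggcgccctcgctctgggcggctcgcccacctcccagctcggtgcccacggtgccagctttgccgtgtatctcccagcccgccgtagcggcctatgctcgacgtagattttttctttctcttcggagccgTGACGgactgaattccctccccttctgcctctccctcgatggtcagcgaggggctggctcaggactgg
DUSP6, chr12:89352502-89352751, minus strand: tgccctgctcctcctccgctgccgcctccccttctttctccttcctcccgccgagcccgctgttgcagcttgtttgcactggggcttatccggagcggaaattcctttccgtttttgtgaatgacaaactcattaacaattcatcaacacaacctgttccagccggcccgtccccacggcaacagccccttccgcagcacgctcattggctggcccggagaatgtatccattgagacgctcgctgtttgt
The DUSP1 window held 1 full CRE at positions -125 to -118, counted from the start, and 2 further cores that do not overlap it. SPRY4 held 1 core, at positions -68 to -64, and DUSP6 held none. Motifs were searched on both strands of windows that also took in 50 bases after the start. There, a full CRE occurred in 1.85% and a core, which each full CRE contains, in 24.6% of 35116 promoters. Among the 10 genes, 8 had promoter entries, 12 in all. Of these entries 1 held a full CRE and 5 a core. An activator protein 1 site (TGANTCA) and a composite site of ATF4 and C/EBP (TGATGNAA) were each in 1 entry, the same SPRED2 promoter, against 7.71% and 3.62% of all promoters. The ETS site CCGGAAG (10.3% of all) and the CArG box of serum response factor (1.29%) were in none of the 12. A match is a run of letters and was not tested for binding.

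DUSP5, which encodes a nuclear phosphatase selective for ERK, was the most abundant of the 10 transcripts in every library. Its level was 244 FPKM (control) and 271 FPKM (mimic) in HEC-1-A, against 81.8 (control) and 14.4 (mimic) in RL-95-2. In HEC-1-A the order below it was SPRED2 (27.7 and 25.9 FPKM in the control and mimic libraries), DUSP6 (25.2 and 24.3), SPRY2 (19.6 and 20.2), SPRY4 (15.7 and 16.8), DUSP1 (7.23 and 8.99), SPRED1 (7.002 and 5.37), DUSP2 (4.66 and 5.27), DUSP4 (3.77 and 3.42) and DUSP10 (1.36 and 1.75). No neighbours in that order overlapped between the pair of HEC-1-A libraries. In RL-95-2 the range of DUSP5 reached down into that of SPRED2 (17.9 and 12.2 FPKM). DUSP6 (16.3 and 9.04) overlapped DUSP5, SPRED2, DUSP1 and DUSP4 (12.1 and 10.4), while SPRED2 and DUSP4 did not overlap each other. DUSP1 (10.2 and 3.50) also overlapped SPRY4 (8.15 and 5.42), SPRY2 (6.92 and 5.75), SPRED1 (6.85 and 6.64) and DUSP2 (5.99 and 5.29). Of these, DUSP2 and SPRED1 did not overlap each other. DUSP10, at 2.36 and 2.26 FPKM, was the lowest in both RL-95-2 libraries.

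**Figure D1:**
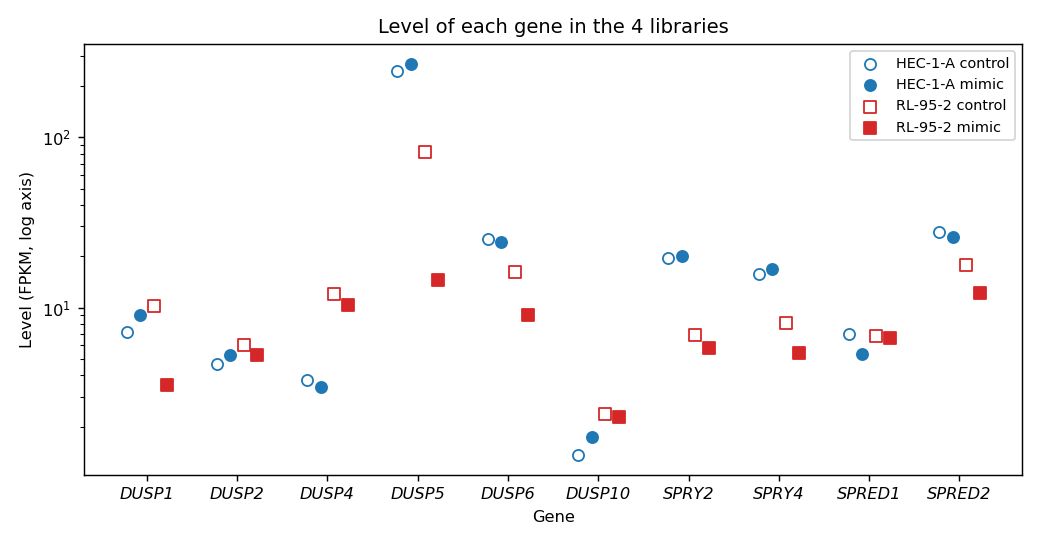
Level of the 10 genes (FPKM, log axis) in the 4 libraries. Points are single libraries, open for control and filled for mimic, circles for HEC-1-A and squares for RL-95-2. DUSP5 is highest in each library, from 271 FPKM in the HEC-1-A mimic to 14.4 in the RL-95-2 mimic library.

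In RL-95-2, all 10 genes had a lower level in the mimic than in the control library, where 49.9% of 13151 measured features had a log2 ratio below 0. Features were counted as measured from a mean of 1 CPM in the line. None had a log2 ratio above 0, as 50.1% of features did. The median log2 ratio, mimic over control, was -0.62 over the 10 genes and 0.00 over all measured features. DUSP5, DUSP1 and DUSP6 were at least 2-fold lower, which is 3 of 10 genes, against a background of 6.52% of features. Because the genes were chosen with earlier results known, these shares describe them and do not test them against the background. None was at least 2-fold higher, where the background was 4.71%, and 11.2% of features were apart in either direction. With scaling by library total the median of all features moved to 0.13, the share of features below 0 to 40.4%, and the share of higher among those at least 2-fold apart from 41.9% to 56.1%. The 10 genes were still below 0 under that scaling, with a median of -0.49, but DUSP6 was no longer 2-fold lower. Each line had 1 library per transfection, so ratios within a line carry no replicate check, and their 95% intervals cover counting error only.

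Among the nuclear phosphatases, DUSP5 stood furthest apart. It had 9456 counts with the control and 1919 with the mimic in RL-95-2, or 242 and 38.9 CPM. That is 6.22-fold lower with the mimic (log2 ratio -2.64, interval -2.71 to -2.57). Among the 13151 measured features it ranked 72 from the lowest ratio. DUSP5 lies on chromosome 10 at 110497838 to 110511544 (GRCh38, GENCODE 29). The annotation holds processed pseudogenes of it (DUSP5P1 and DUSP5P2), neither among the 22494 features by symbol. How reads shared with them were counted is not given in the sources used here, nor for DUSP8, which has such copies too.

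DUSP1 encodes a nuclear phosphatase of p38, JNK and ERK that is induced within minutes by growth factors and stress. Its RL-95-2 counts were 934 with the control and 368 with the mimic, or 23.9 and 7.46 CPM. The mimic library was 3.19-fold lower (log2 ratio -1.67, interval -1.86 to -1.51). The gene lies on chromosome 5 at 172768090 to 172771195, and its promoter is the one with the full CRE above.

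DUSP4 and DUSP2, which encode further nuclear phosphatases, differed less. DUSP4 had 76.6 CPM with the control and 60.0 with the mimic in RL-95-2 (log2 ratio -0.35, interval -0.43 to -0.28). DUSP2, best known from immune cells, had 11.7 and 9.41 CPM (log2 ratio -0.32, interval -0.51 to -0.13). The nuclear phosphatases thus ranged from 6.22-fold to 1.25-fold lower.

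DUSP6, the cytoplasmic phosphatase of ERK and a widely used readout of ERK activity, had 2953 counts with the control and 1816 with the mimic in RL-95-2. Its levels there were 75.7 and 36.8 CPM, 2.05-fold lower with the mimic (log2 ratio -1.04, interval -1.12 to -0.95). The interval includes the 2-fold line, and scaling by library total gave -0.91 and the log2(FPKM + 0.1) scale -0.84. DUSP6, on chromosome 12 at 89347232 to 89353271, shares 1875 exonic bases with AC024909.2, annotated on the opposite strand. The strand setting of the counts is not given, so reads of the pair cannot be told apart.

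DUSP10, which encodes a phosphatase acting on p38 and JNK rather than ERK, had 286 and 315 counts in the RL-95-2 control and mimic libraries. Scaled, these were 7.33 and 6.39 CPM, and the interval of the log2 ratio (-0.20, -0.43 to 0.04) includes 0. A difference in DUSP10 was not detectable at this depth.

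SPRY4 and SPRY2 encode membrane-associated inhibitors of receptor tyrosine kinase signalling to RAS and ERK. SPRY4 had 41.6 CPM with the control and 23.9 with the mimic in RL-95-2, 1.74-fold lower (log2 ratio -0.80, interval -0.91 to -0.69). For SPRY2 the levels were 19.3 and 13.1 CPM (log2 ratio -0.56, interval -0.71 to -0.41). On log2(FPKM + 1) the SPRY2 ratio was -0.23. SPRY4, on chromosome 5 at 142310427 to 142326455, shares no exonic base with SPRY4-AS1, which overlaps it on the other strand.

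SPRED2 and SPRED1 encode inhibitors that act on RAS and RAF. SPRED1 is known to bring the RAS inhibitor neurofibromin to the membrane. SPRED2 had 81.3 CPM with the control and 50.5 with the mimic in RL-95-2 (log2 ratio -0.69, interval -0.76 to -0.61). SPRED1 had 61.8 and 54.3 CPM (log2 ratio -0.18, interval -0.26 to -0.10), and its ratio shrank to -0.06 with scaling by library total. The 2-fold line in RL-95-2 therefore fell between DUSP6 at -1.04 inside it and SPRY4 at -0.80 outside it.

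In HEC-1-A the same genes had small ratios of both signs. None of the 10 was at least 2-fold higher (0.871% of 12981 features) or lower (0.239%), where 1.11% of features were apart in either direction. In sign, 4 of 10 were below 0 (46.4% of features) and 6 above (53.6%). The median was 0.10 over the 10 genes and 0.02 over all measured features. DUSP5 had 708 and 803 CPM with control and mimic (log2 ratio 0.18, interval 0.16 to 0.20), and DUSP1 16.5 and 21.0 CPM (log2 ratio 0.35, interval 0.19 to 0.50). DUSP10 had 4.14 and 5.43 CPM, from 137 and 243 counts (log2 ratio 0.39, interval 0.08 to 0.71). SPRY4 stood at 79.7 and 86.1 CPM (log2 ratio 0.11, interval 0.04 to 0.18). The 4 genes just named were those above 0 with an interval clear of 0. The share of all features with such an interval was not counted, so these 4 are not set against a background.

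SPRED1 was the lowest of the 10 in HEC-1-A, with 61.8 CPM for the control and 48.4 for the mimic (log2 ratio -0.35, interval -0.44 to -0.26). Its HEC-1-A ratio was further below 0 than its RL-95-2 ratio, the single gene of the 10 of which this held. SPRED2 had 123 and 116 CPM (log2 ratio -0.09, interval -0.15 to -0.03). The intervals of DUSP2 (log2 ratio 0.21), SPRY2 (0.08), DUSP6 (-0.02) and DUSP4 (-0.10) included 0 in HEC-1-A.

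**Figure D2:**
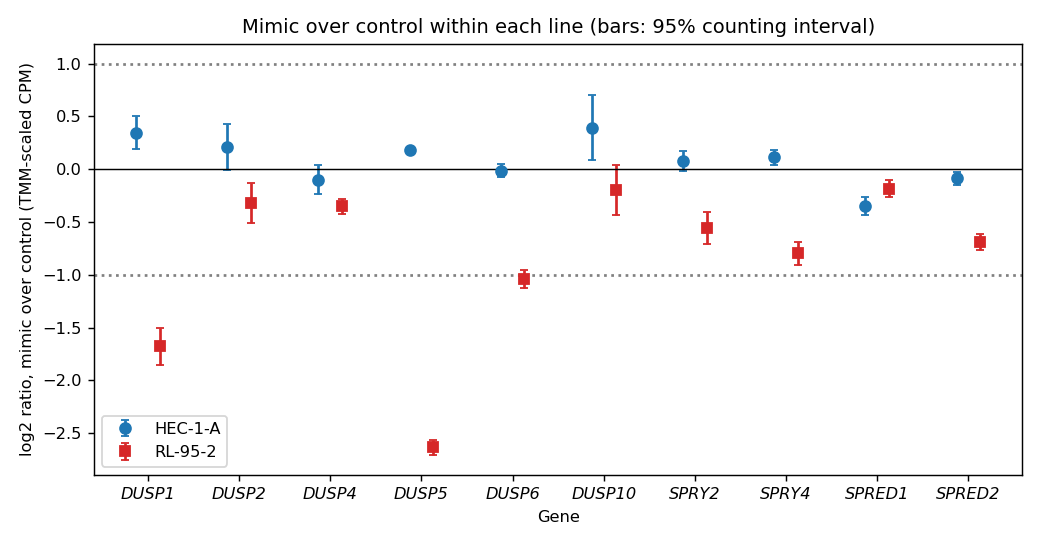
Log2 ratio of mimic over control (TMM-scaled CPM) of the 10 genes in HEC-1-A (blue circles) and RL-95-2 (red squares), with 95% counting intervals as bars and 2-fold changes as dotted lines. All RL-95-2 points lie below 0, from -2.64 for DUSP5 to -0.18 for SPRED1, and the HEC-1-A points lie between -0.35 and 0.39.

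Over both lines no member passed the test of mimic against control. The edgeR quasi-likelihood test, with the line as a block, called 0 of 15957 features (0%). Of all features 167 had an unadjusted p under 0.05, and 0 of the 10 genes did. These 167 are a smaller share than the 0.05 that p-values give where nothing differs. The 0 of 10 therefore does not show an absence of response. DESeq2 called 2 features and limma-voom 0, in neither case a member. The log2 fold change was -1.23 for DUSP5 (SE 0.68, n = 2 per transfection) and -0.66 for DUSP1 (SE 0.51), with an edgeR adjusted p of 0.9999 for each. DUSP5 and DUSP1 were lower with the mimic in 1 of 2 lines. DUSP6 had a log2 fold change of -0.53 (SE 0.30), and its HEC-1-A interval included 0. The difference in response between the lines was not tested, since a model that holds it leaves no residual degree of freedom.

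Between the lines, SPRY2, SPRY4 and SPRED2 were lower and DUSP4 was higher in RL-95-2. The edgeR test, on 2 libraries per line that differ in transfection, called 19.7% of 15957 features lower and 21.9% higher in RL-95-2, 41.6% in all, so the 4 of 10 genes called are a share near the background. SPRY2 was at 48.7 ± 1.90 CPM (SD, n = 2) in HEC-1-A against 16.2 ± 4.40 in RL-95-2 (edgeR log2 fold change -1.59, SE 0.24, adjusted p = 0.0060). SPRY4 was at 82.9 ± 4.53 and 32.7 ± 12.5 CPM, 2.53-fold lower in RL-95-2 (log2 fold change -1.34, SE 0.29, edgeR adjusted p = 0.018). SPRED2 was at 119 ± 5.16 and 65.9 ± 21.8 CPM (log2 fold change -0.86, SE 0.26, edgeR adjusted p = 0.048). In the opposite direction, DUSP4 was at 22.8 ± 1.14 CPM in HEC-1-A against 68.3 ± 11.7 in RL-95-2 (log2 fold change 1.59, SE 0.20, edgeR adjusted p = 0.0032). DUSP4 is the nuclear phosphatase whose gene is on chromosome 8.

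The call on SPRED2 was lost without the HEC-1-A control (edgeR adjusted p = 0.21) or the HEC-1-A mimic library (0.16), and with a filter of at least 1 CPM in all 4 libraries (0.051), and that on SPRY4 without the HEC-1-A mimic library (0.064). DUSP4 and SPRY2 were called without any 1 of the 4 libraries. With 1 library left out, the lone library of its line is assumed to vary like the pair of the other line, which alone gives the spread.

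DUSP5 and DUSP6 were lower in both RL-95-2 libraries than in both HEC-1-A libraries, as were 36.9% of features, yet did not pass the test. DUSP5 was at 755 ± 66.7 CPM (SD, n = 2) in HEC-1-A against 141 ± 144 in RL-95-2 (edgeR log2 fold change -2.43, SE 0.82, adjusted p = 0.065), and DUSP6 at 108 ± 0.816 and 56.2 ± 27.5 CPM (-0.94, SE 0.35, edgeR adjusted p = 0.083). With a term for the transfection as a replicate block, edgeR called both (adjusted p = 0.020 for DUSP5 and 0.040 for DUSP6). For DUSP5 the gap between the lines was 2.92-fold in the control and 20.6-fold in the mimic libraries.

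DUSP1, DUSP2 and SPRED1 overlapped between the lines, and the other 7 did not, against 75.5% of features without overlap. DUSP1 was 1.45-fold higher in RL-95-2 among control libraries and 2.81-fold lower among mimic libraries, so its order depended on the transfection (edgeR log2 fold change -0.26, SE 0.55, adjusted p = 0.73). DUSP10 was above HEC-1-A in both RL-95-2 libraries, as were 38.6% of features, without passing (0.52, SE 0.30, edgeR adjusted p = 0.23). SPRED1, at 61.8 CPM in both control libraries, had a log2 fold change of 0.08 (SE 0.19).

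**Figure D3:**
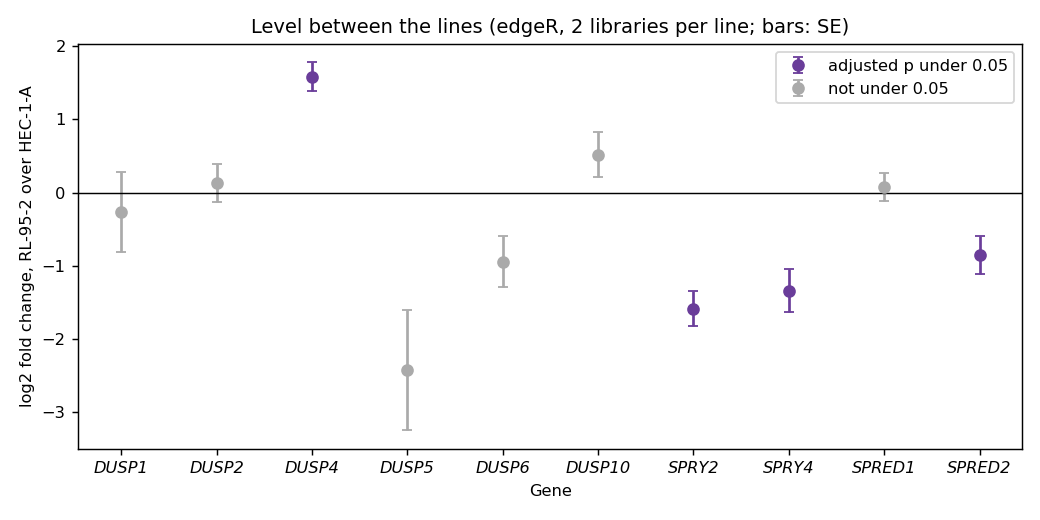
EdgeR log2 fold change of RL-95-2 over HEC-1-A for the 10 genes, with standard errors as bars (2 libraries per line). Purple points passed an adjusted p of 0.05, which were DUSP4 at 1.59, SPRY2 at -1.59, SPRY4 at -1.34 and SPRED2 at -0.86.

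The other phosphatases of the family split in RL-95-2. DUSP7 and DUSP9 encode cytoplasmic phosphatases of ERK, as DUSP6 does. DUSP7 was lower in the mimic library (126 and 72.0 CPM in the control and mimic, log2 ratio -0.81), while DUSP9 was higher (16.3 and 42.9 CPM, log2 ratio 1.39). DUSP9 had only 10 counts in each HEC-1-A library. DUSP8 and DUSP16, which like DUSP10 encode phosphatases of JNK and p38, stood 2-fold or more lower, unlike DUSP10. DUSP8 had 26.7 and 6.33 CPM (log2 ratio -2.07, interval -2.26 to -1.89) and DUSP16 had 99.9 and 41.5 CPM (log2 ratio -1.27). Of the smaller phosphatases, log2 ratios in RL-95-2 were -0.15 for DUSP3, 0.24 for DUSP14 and -0.29 for DUSP22. In HEC-1-A, 6 of these 7 genes were measured, with ratios between -0.11 and 0.44.

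Summed over the 10 classical MAP kinase phosphatases (DUSP1, DUSP2, DUSP4 to DUSP10 and DUSP16), FPKM was 302 (control) and 331 (mimic) for HEC-1-A and 189 (control) and 91.6 (mimic) for RL-95-2. DUSP5 made up 81.0% and 82.0% of the sum in the HEC-1-A control and mimic libraries. In RL-95-2 its share was 43.2% with the control and 15.8% with the mimic, where DUSP7 (22.5%) and DUSP9 (18.3%) exceeded it. The FPKM sums carry no TMM scaling, unlike the ratios above. In RL-95-2 the mimic library had a 2.07-fold lower sum with DUSP5 and a 1.39-fold lower sum without it. The leading transcript of the class in that library was therefore DUSP7, and DUSP5 in the other 3.

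**Figure D4:**
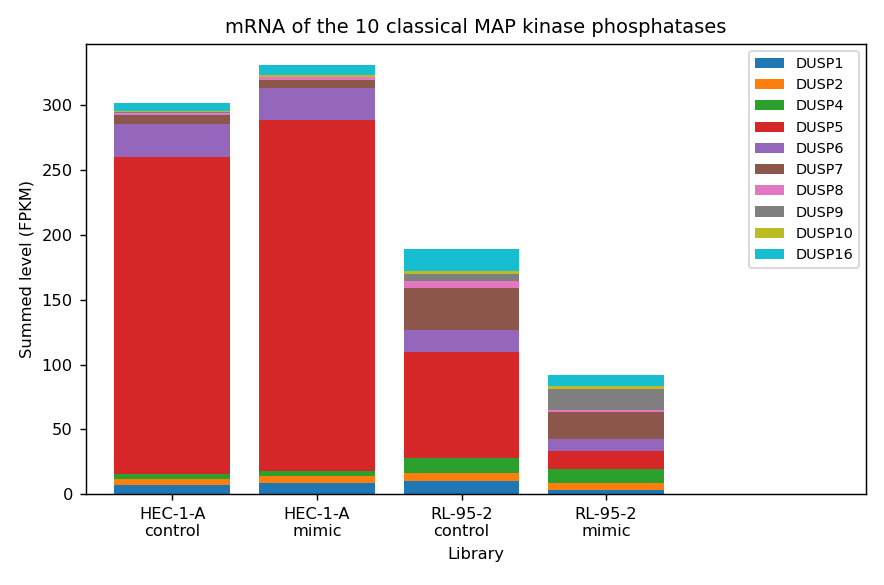
Summed FPKM of the 10 classical MAP kinase phosphatase transcripts in each library, with 1 colour per gene. The RL-95-2 sum is 189 with the control and 91.6 with the mimic, and the DUSP5 segment shrinks from 81.8 to 14.4 FPKM.

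The remaining Sprouty and SPRED genes were mixed in RL-95-2. SPRY1 had 24.0 and 17.3 CPM in the RL-95-2 control and mimic libraries (log2 ratio -0.47) and 98.1 and 84.3 in HEC-1-A. Between lines SPRY1 was lower in RL-95-2, as SPRY2 and SPRY4 were (edgeR log2 fold change -2.14, SE 0.23, adjusted p = 0.0021). SPRED3 had 34 and 215 counts in the RL-95-2 control and mimic libraries (log2 ratio 2.26). Its deposited FPKM went only from 0.517 to 0.935, so the count ratio of SPRED3 is uncertain. SPRY3 had 26 and 72 counts there, or 0.67 and 1.46 CPM (log2 ratio 1.08, interval 0.47 to 1.84). That level is near the limit of 1 CPM, and the interval includes the 2-fold line.

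Of 21 genes of the cascade from receptor adaptors to ERK and the ribosomal S6 kinases it activates, 16 were below 0 in RL-95-2 (49.9% of all measured features) and 1 was at least 2-fold lower (6.52%). Their median log2 ratio was -0.29. The extremes were SOS2, a RAS activator, at -1.43 and BRAF, a RAF kinase, at -0.79, and at the upper end RPS6KA1, an ERK-activated kinase, at 0.56 and HRAS at 0.38. For the p38 and JNK cascade 8 of 16 genes were below 0, a share near that of all features, with 0 lower and 1 higher by 2-fold (4.71% of features). MAP2K6, a p38 activator, was that gene (20 and 232 counts, log2 ratio 3.08), followed by MAPK11 (0.67), while MAPK8 (-0.35) and MAP2K3 (-0.27) were lowest.

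Of 13 genes known as transcriptional outputs of ERK signalling, 12 were measured in RL-95-2, and 11 of these were below 0, with 6 at least 2-fold lower and a median log2 ratio of -1.06. Over all features 49.9% were below 0 and 6.52% at least 2-fold lower, with a median of 0.00. The list was likewise chosen with earlier results known, so the comparison is a description only. The lowest were EGR1, an early response transcription factor, at -2.02 (45.8 and 11.3 CPM in the control and mimic libraries), and ERRFI1, a feedback inhibitor of the EGF receptor, at -1.84. The highest were CCND1, encoding cyclin D1, at 0.22 and SPRY1 at -0.47. Among 10 transcription factors that act on early genes, 8 were below 0 and 1 was at least 2-fold lower, with ETS1 at -1.06, ETS2 at -0.65, CREB1 at 0.25 and CIC at 0.36. In HEC-1-A, 0 genes of these 4 lists were 2-fold apart, where 1.11% of all measured features were. List medians there lay between 0.00 and 0.11. The test over both lines called 0 genes of the 6 companion lists by edgeR.

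**Figure D5:**
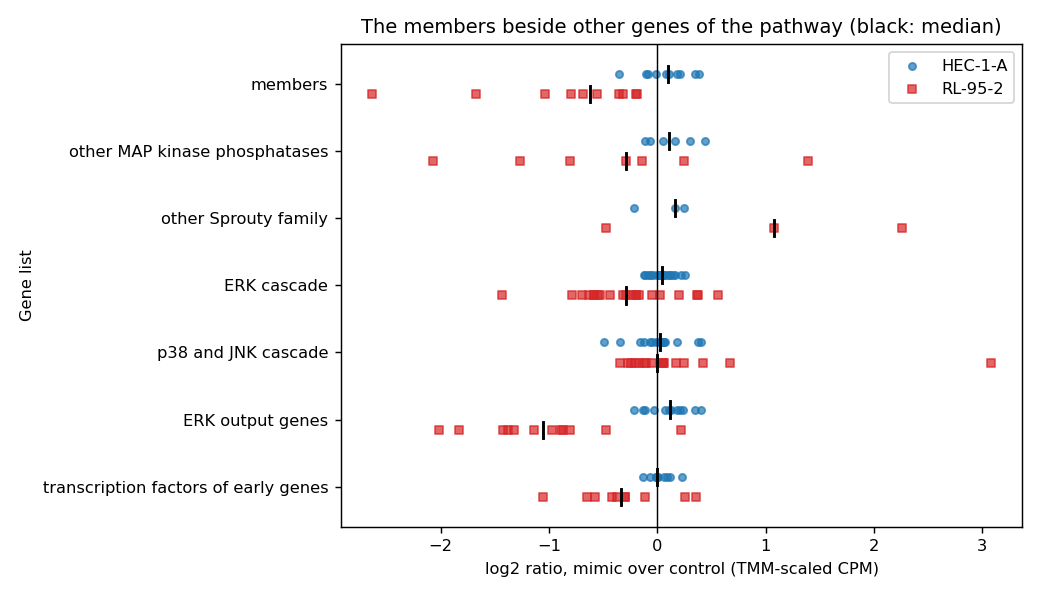
Log2 ratios of mimic over control (TMM-scaled CPM) of the 10 genes ("members") and of other genes of the pathway by list, in HEC-1-A (blue circles) and RL-95-2 (red squares), for genes measured in the line. Black ticks are medians, which in RL-95-2 are -0.62 for the 10 genes and -1.06 for the ERK output genes.

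The features most like DUSP1, DUSP6 and SPRY4 over the 4 libraries were found among 10101 others by Euclidean distance of centred log2 CPM. Nearest to DUSP1 were WBSCR27 (distance 0.12), SRXN1 (0.14) and XBP1 (0.15). Nearest to DUSP6 were PTCH1, SEC63 and CRELD1 (each 0.12). SPRY4 was closest to AKIRIN2 (0.02), TAB2 (0.05) and SCRN1 (0.07). With 4 libraries such neighbours are a description only.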

How the data were processed

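Poly(A) RNA of 4 libraries had been sequenced, and the authors deposited raw counts and FPKM values per gene. CASAVA, HISAT2 and GRCh38 (hg38) are named, per the submitters' processing notes. Which counter, annotation, strand setting or FPKM length they used is not given in the sources used here. Counts were scaled with TMM and tested with edgeR 4.0.16 (R 4.3.3, quasi-likelihood F test, Benjamini-Hochberg adjustment over all features, FDR 0.05). The SE of an edgeR log2 fold change is its absolute value divided by the square root of the F statistic. It draws on the fit over all features and not on the libraries of that gene alone. The test of mimic against control had the line as a block. The pairing comes from the line named in the labels (Pearson r of log2(CPM + 1) across genes 0.997 within HEC-1-A, 0.986 within RL-95-2, and 0.896 to 0.900 between lines). Ratios within a line used a prior count of 2 and exact 95% binomial intervals of the 2 counts. Features needed a mean of 1 CPM, and counted as apart at 2-fold.

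Gene positions came from GENCODE 29 and promoters from RefSeq. The 10 genes and all lists were chosen with earlier results of these data known. The genes named are the 10, both short companion lists in full, and the 2 highest and 2 lowest RL-95-2 ratios of each longer list. The sum over classical phosphatases was formed after values were seen. Alternatives were DESeq2 1.42.0, limma 3.58.1, other scalings, filters and prior counts, FPKM, the block, and libraries left out. The count test was tested on simulated data, with the same mimic change in both lines. Of simulated 2-fold changes it recovered 26.6% for mimic against control and 13.6% between lines. At 4-fold it recovered 76.1% and 86.6%, and at 8-fold 92.2% in each. False calls numbered 21 and 11.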

Additional observations from a re-analysis of the deposited data

Results flagged for a closer look

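DUSP1, DUSP5 and SPRY4 had ratios of mimic over control on opposite sides of 0 in the lines, each with a counting interval clear of 0. The difference of the log2 ratios, RL-95-2 minus HEC-1-A, was -2.82 for DUSP5 (0.18 in HEC-1-A, -2.64 in RL-95-2), -2.02 for DUSP1 (0.35 and -1.67) and -0.91 for SPRY4 (0.11 and -0.80). With 1 library per line and transfection, these differences were not tested. The share of all features with such opposite ratios was not counted, so the pattern is not shown to be particular to these genes. Some companion genes had it too, among them GRB2 (0.12 in HEC-1-A, -0.32 in RL-95-2) and EPHA2 (0.35 and -1.42).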

How the results depend on the processing

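In RL-95-2 the 10 genes stayed below 0 under all scalings, prior counts and FPKM settings run, and in HEC-1-A 4 of 10 did. In RL-95-2, 2 of the 10 genes in place of 3 were 2-fold lower with scaling by library total (5.20% of all features lower), on log2(FPKM + 1) (2.85%) and on log2(FPKM + 0.1) (4.64%), and 5 were lower by 1.5-fold (15.5%). All features at least 2-fold apart numbered 144 in HEC-1-A against 1476 in RL-95-2. They were 26 and 727 on log2(FPKM + 1), 29 and 941 at a mean of 5 CPM, and 617 and 3943 at 1.5-fold. In HEC-1-A the share of higher among those apart was 78.5%, and 13 of 26 on log2(FPKM + 1). Over both lines, DESeq2 called 2 features and limma on log2(FPKM + 0.1) called 3, against 0. With no replicate block edgeR again called 0, and the DUSP5 log2 fold change was -0.18 in place of -1.23. The values with 1 line left out ran from -1.67 to 0.35 for DUSP1, -0.32 to 0.21 for DUSP2, -2.64 to 0.18 for DUSP5, -0.20 to 0.39 for DUSP10, -0.56 to 0.079 for SPRY2 and -0.80 to 0.11 for SPRY4, the lower end in each case being RL-95-2 alone. Between lines 6646 features and 4 members were called, 3841 features with at least 1 CPM in all 4 libraries (fewer features were tested), and 5594 features and 6 members with the replicate block for transfection. With 1 library left out the counts ran from 3249 to 10743 features and from 2 to 7 members. The lowest came without the HEC-1-A mimic and the highest without the RL-95-2 control library, and counts were 3535 features without the HEC-1-A control and 10171 without the RL-95-2 mimic library. There the log2 fold change of DUSP1 ran from -1.33 to 0.36, of DUSP2 from -0.034 to 0.30 and of SPRED1 from -0.093 to 0.26. The cause of these shifts was not tested. Beside the replicate block, DUSP5 was called between lines by DESeq2 (adjusted p = 0.0011), limma-voom (0.043), limma on log2(FPKM + 0.1) (0.045) and edgeR with no filter (0.049), and DUSP6 by DESeq2 (0.032). Both were called without either RL-95-2 library. SPRED2 was not called with at least 1 CPM in all 4 libraries (0.051).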
